A study of Homo sapiens with 12 samples.

Results

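Expression of 8 genes of the NF-kB pathway was described across 3 human cancer cell lines and 4 transfection treatments. The genes are the subunit genes NFKB1, NFKB2 and RELB, the inhibitor gene NFKBIA, the feedback gene TNFAIP3, and the response genes TNFAIP2, ICAM1 and LCN2. Every probe set whose array annotation names 1 of these genes and no other gene was taken, which gave 15 of the 54613 probe sets tested. NFKB2 and ICAM1 had 3 probe sets each, NFKBIA, TNFAIP3 and TNFAIP2 had 2, and NFKB1, RELB and LCN2 had 1. No probe set that names several genes includes any of the 8.

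The lines are labelled PC-3 (prostate cancer), HBC4 (breast cancer) and MKN74 (gastric cancer). Cells were transfected with a cationic lipid reagent in low-adhesion plates, for culture in 3D, and total RNA was taken after 72 h. The G4 group received an oligonucleotide that can form a G-quadruplex, a stack of guanine tetrads. It was either (uuaggg)4, an RNA oligonucleotide of the telomeric repeat, or AS1411, a DNA aptamer. The control group received (uuaccc)4, an RNA oligonucleotide with cytosines in place of the guanines, or the reagent alone with no oligonucleotide, although the series text counts all 6 controls as given a control oligonucleotide. The dose of an oligonucleotide was about 100 pmol per well for 300000 cells. Each line received each treatment once, which gives 12 arrays, 6 per group and 3 per treatment. No further cultures are named, so p-values measure only the spread between these arrays.

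NF-kB is a family of dimeric transcription factors built from Rel-domain subunits and held in the cytoplasm by IkB proteins. Cytokine receptors, Toll-like receptors and nucleic acid sensors activate the IkB kinases, IkB is degraded, and the freed dimers enter the nucleus and turn on genes of inflammation, adhesion and survival. Among these genes are several that damp the pathway again, NFKBIA and TNFAIP3 among them, and the precursor genes NFKB1 and NFKB2 themselves.

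Promoters are shown because NF-kB dimers act on a short DNA element. The 250 bases upstream of the starts in RefSeq (GRCh38.p14) were searched on both strands for the kappaB consensus decamer, overlapping matches included. The decamer was GGG, a purine, any 2 bases, 2 pyrimidines and CC, with no mismatch allowed. The table held 10 such windows for 7 of the 8 genes, and 6 of the 10 windows (60%) held a match, against 9.96% of all 35116 windows. Matches lay upstream of NFKB1, NFKB2, NFKBIA, TNFAIP3 and LCN2, and no full match lay in the windows of TNFAIP2 and ICAM1. The ICAM1 window does hold tggaaattcc, which misses the decamer by 1 base, so the search does not show that ICAM1 lacks a kappaB site. A core of the interferon response element, GAAA followed by any 2 bases and a second GAAA, was found in 0 of the 10 windows and in 3.02% of all windows. Capitals mark the kappaB matches in the windows of LCN2 (chr9:128149203-128149452, plus strand), TNFAIP3 (chr6:137867009-137867258, plus strand) and NFKBIA (chr14:35404750-35404999, minus strand), printed 5' to 3' along the gene.
LCN2: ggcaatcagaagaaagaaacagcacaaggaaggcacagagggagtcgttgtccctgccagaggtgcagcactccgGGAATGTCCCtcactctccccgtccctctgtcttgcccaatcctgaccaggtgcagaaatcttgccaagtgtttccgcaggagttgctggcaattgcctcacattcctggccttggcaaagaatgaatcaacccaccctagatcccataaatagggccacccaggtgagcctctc
TNFAIP3: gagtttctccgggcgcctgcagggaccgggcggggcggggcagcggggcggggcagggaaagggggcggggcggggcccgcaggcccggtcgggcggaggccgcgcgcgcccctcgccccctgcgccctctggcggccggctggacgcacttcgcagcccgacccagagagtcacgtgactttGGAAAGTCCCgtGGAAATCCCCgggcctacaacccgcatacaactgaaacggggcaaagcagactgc
NFKBIA: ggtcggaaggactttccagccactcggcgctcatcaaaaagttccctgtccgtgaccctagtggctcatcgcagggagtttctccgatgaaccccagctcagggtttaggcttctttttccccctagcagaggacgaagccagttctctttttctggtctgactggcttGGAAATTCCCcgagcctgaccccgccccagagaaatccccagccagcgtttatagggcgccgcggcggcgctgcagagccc
The match ended 166 bases upstream of the start of LCN2 and 72 bases upstream of that of NFKBIA. TNFAIP3 had a pair of matches, which ended 58 and 46 bases upstream. A match is a string of letters, and binding there was not measured in these cells.

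The values are log2 expression values, centred so that each probe set has a median of 0 over the 12 arrays. Centring leaves differences between arrays intact, but no level, detection call or comparison of levels between genes can be given. Arrays of 1 line had correlations over all probe sets of 0.856 or more with each other and of -0.171 or less with those of other lines. Centring over the lines lowers the correlations between them, so values below 0 do not show opposite expression. Each marker gene was read at the probe set that varied most between lines. Of 5 prostate markers 3 were highest in PC-3 (HOXB13 by 4.86 over the next line, TMPRSS2 by 1.17, FOLH1 by 0.03), and KLK2 and KLK3 were highest in HBC4. Of 7 breast markers 4 were highest in HBC4 (ESR1 by 3.18, SCGB2A2 by 1.16, ERBB2 by 0.36, GATA3 by 0.18). MUCL1 and PGR were highest in MKN74 and TFAP2B in PC-3. Of 4 leukocyte markers 3 were also highest in HBC4, among them CD14 by 3.01 and LYZ by 2.20. Of 7 stomach markers, 4 were highest in PC-3, with TFF1 and TFF2 ahead by 8.24 and 8.26, and only GKN1 was highest in MKN74, by 0.13. The stomach markers thus went against the labels, and the lines are called by their labels only. Of the 91 probe sets of prostate, breast, stomach, leukocyte, fibroblast and endothelial markers, limma called 0 for G4 oligonucleotides against controls, and 12 had an unadjusted p under 0.05, a smaller share than the 16.2% of all probe sets.

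The main question was whether the genes differed between cells given a G4 oligonucleotide and control cells of the same line. LCN2, which encodes the secreted iron-siderophore binding protein lipocalin, fell 1.57-fold. TNFAIP3, which encodes a ubiquitin-editing enzyme that shuts NF-kB signalling off, fell 1.45-fold on 1 of its 2 probe sets. No probe set of the 8 genes was called higher. RNA came from whole wells, so fewer cells that express a gene and less of its RNA per cell cannot be told apart. Of the 15 probe sets 2 were called lower (13.3%) at a limma adjusted p under 0.05, the p-values being adjusted by the Benjamini-Hochberg method over all 54613 probe sets. Over all of those, 1.57% were called in either direction and 1.1% were called lower. The log2 difference was negative for 12 of the 15, with a median of -0.18, whereas 44.2% of all probe sets were negative and their median was 0.02. At an unadjusted p under 0.05 there were 7 of the 15, against 16.2% of all probe sets.

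LCN2 in HBC4 stood at 6.99 with the reagent alone, 6.71 with (uuaccc)4, 6.09 with (uuaggg)4 and 5.87 with AS1411. The LCN2 values in MKN74, in the same order, were 0.25, 0.37, -0.65 and -0.36. Those in PC-3 were -0.25, -0.39, -0.70 and -0.46. In each of the 3 lines both G4 arrays lay below both control arrays, with no overlap, and the gap was narrowest in PC-3. The log2 differences within lines were -0.26 (PC-3), -0.87 (HBC4) and -0.82 (MKN74). Their mean was -0.65 ± 0.34 (SD, n = 3 lines), with a 95% interval of -0.90 to -0.40 from the fit (limma adjusted p = 0.0189). The LCN2 call was lost without any 1 of 4 arrays. They were the HBC4 array with the reagent alone (-0.58, adjusted p = 0.0541), with (uuaccc)4 (-0.64, 0.0571) or with (uuaggg)4 (-0.67, 0.0551), and the MKN74 array with (uuaggg)4 (-0.59, 0.0546). Without all HBC4 arrays the difference was -0.54 (0.2), and without all MKN74 arrays it was -0.56 (0.146).

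TNFAIP3 on probe set 202644_s_at had the values 0.02, -0.36, -0.94 and -0.97 in HBC4, in the order reagent alone, (uuaccc)4, (uuaggg)4 and AS1411. In MKN74 the values were 1.06, 1.25, 0.77 and 0.61. In PC-3 they were -0.02, 0.13, -0.36 and -0.23. Here too both G4 arrays lay below both controls in every line. The mean log2 difference was -0.53 ± 0.23 (SD, n = 3 lines), with a 95% interval of -0.75 to -0.32 (limma adjusted p = 0.0221). By line it was -0.35 (PC-3), -0.79 (HBC4) and -0.46 (MKN74). The second TNFAIP3 probe set, 202643_s_at, gave 0.06 (PC-3), -0.66 (HBC4) and -0.45 (MKN74), with a mean of -0.35 (adjusted p = 0.261). Its G4 arrays lay below both controls in HBC4 and MKN74 and overlapped with them in PC-3.

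The TNFAIP3 call on 202644_s_at was lost without any 1 of 7 arrays. They were the PC-3 arrays with (uuaccc)4 (-0.54, adjusted p = 0.0634) and (uuaggg)4 (-0.54, 0.0628), the HBC4 arrays with (uuaccc)4 (-0.55, 0.0554), (uuaggg)4 (-0.49, 0.0775) and AS1411 (-0.49, 0.0674), and the MKN74 arrays with (uuaccc)4 (-0.51, 0.0568) and AS1411 (-0.52, 0.0518). With a whole line left out the TNFAIP3 difference was -0.62 without PC-3 (0.097), -0.41 without HBC4 (0.163) and -0.57 without MKN74 (0.112).

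**Figure D1:**
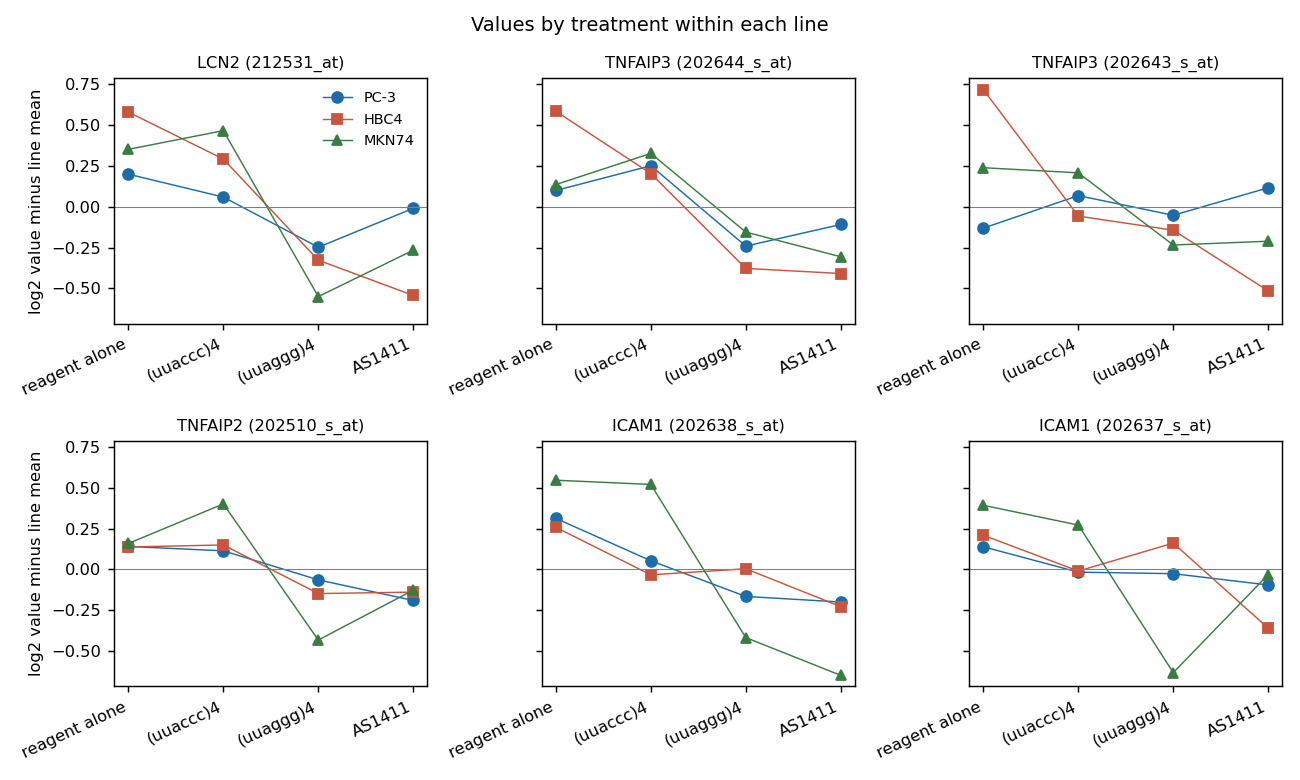
Log2 values of LCN2, TNFAIP3, TNFAIP2 and ICAM1 probe sets on each of the 12 arrays, after subtraction of the mean of the line, by treatment; each point is 1 array, and lines join the 4 arrays of a cell line. The probe sets shown are those of these genes with an unadjusted limma p under 0.05 for G4 oligonucleotides against controls. For LCN2, TNFAIP3 202644_s_at and TNFAIP2 202510_s_at both G4 treatments lie below both controls in all 3 lines.

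TNFAIP2 encodes a protein induced by tumour necrosis factor. On probe set 202510_s_at it stood at 2.14, 2.16, 1.86 and 1.87 in HBC4, in the order reagent alone, (uuaccc)4, (uuaggg)4 and AS1411. The values in MKN74 were -1.52, -1.28, -2.11 and -1.81, and those in PC-3 were 0.12, 0.09, -0.09 and -0.22. Both G4 arrays lay below both controls in all 3 lines. The mean log2 difference was -0.37 ± 0.17 (SD, n = 3 lines), with a 95% interval of -0.55 to -0.19, and missed the threshold (limma adjusted p = 0.0526). The other TNFAIP2 probe set, 202509_s_at, had a difference of 0.06 (adjusted p = 0.839), and its groups overlapped in every line.

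ICAM1 encodes the intercellular adhesion molecule that leukocyte integrins bind. On probe set 202638_s_at it stood at -0.86 and -0.89 in the MKN74 controls (reagent alone and (uuaccc)4) and at -1.83 and -2.06 with (uuaggg)4 and AS1411. In PC-3 the controls were at 0.43 and 0.17 and the G4 arrays at -0.05 and -0.08. In HBC4 the controls were at 0.53 and 0.24 and the G4 arrays at 0.28 and 0.05, so the groups overlapped there only. The mean log2 difference was -0.55 ± 0.45 (SD, n = 3 lines), with a 95% interval of -0.83 to -0.28 (limma adjusted p = 0.0547). It was -1.07 in MKN74, against -0.37 in PC-3 and -0.22 in HBC4. The other ICAM1 probe sets had differences of -0.33 (202637_s_at, adjusted p = 0.247) and -0.03 (215485_s_at, 0.894).

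ICAM1 and TNFAIP2 lay so close to the threshold that other settings called them. With array medians subtracted the adjusted p was 0.0463 for ICAM1 202638_s_at and 0.0427 for TNFAIP2 202510_s_at. With 1 probe set per gene, the one that varied most between lines, it was 0.0491 and 0.0425, and TNFAIP3, then read at 202643_s_at, was not called (-0.35, 0.234).

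Counted by order alone, 3 of the 15 probe sets (20%) had both G4 arrays below both controls in each of the 3 lines, against 2.98% of all probe sets tested. They were those of LCN2, TNFAIP3 (202644_s_at) and TNFAIP2 (202510_s_at). No probe set of a subunit gene or of NFKBIA was among them.

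Of the subunit genes, NFKB1, the precursor of the canonical DNA-binding subunit, had a log2 difference of 0.04 between G4 oligonucleotides and controls (95% interval -0.09 to 0.17; adjusted p = 0.806). Its values ranged from -0.28 to 0.16 over the 12 arrays. NFKB2, the precursor subunit of the non-canonical branch, had differences of -0.18 (209636_at, adjusted p = 0.283), -0.07 (211524_at, 0.752) and -0.01 (207535_s_at, 0.967). The interval for 209636_at ran from -0.35 to -0.01, and its difference was negative in all 3 lines.

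RELB, the partner of the processed NFKB2 product, stood at 0.55 and 0.29 in the MKN74 controls and at -0.14 and 0.06 with (uuaggg)4 and AS1411. In PC-3 the controls were at -0.22 and -0.08 and the G4 arrays at -0.05 and -0.02. In HBC4 the controls were at 0.18 and -0.04 and the G4 arrays at 0.16 and 0.02. The G4 arrays of RELB thus lay below both controls in MKN74, above both in PC-3 and between them in HBC4. The mean log2 difference was -0.11 (95% interval -0.34 to 0.12; adjusted p = 0.65).

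NFKBIA encodes IkB alpha, which binds the dimers and is itself an early target. On probe set 201502_s_at it stood at 0.54 and 0.35 in the MKN74 controls and at -0.07 and 0.0041 with (uuaggg)4 and AS1411. In HBC4 the order was 0.49, 0.08, 0.09 and -0.14. In PC-3 it was -0.34, -0.16, -0.25 and -0.0041. The groups were apart in MKN74 only. The mean log2 difference was -0.22 ± 0.31 (SD, n = 3 lines; 95% interval -0.47 to 0.03; adjusted p = 0.37), from 0.13 (PC-3), -0.31 (HBC4) and -0.48 (MKN74). The other NFKBIA probe set, 231699_at, had a difference of 0.10 (0.572). In MKN74 it went the other way, with both G4 arrays above both controls (means of 0.10 and -0.06). Its groups overlapped in PC-3 and HBC4.

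**Figure D2:**
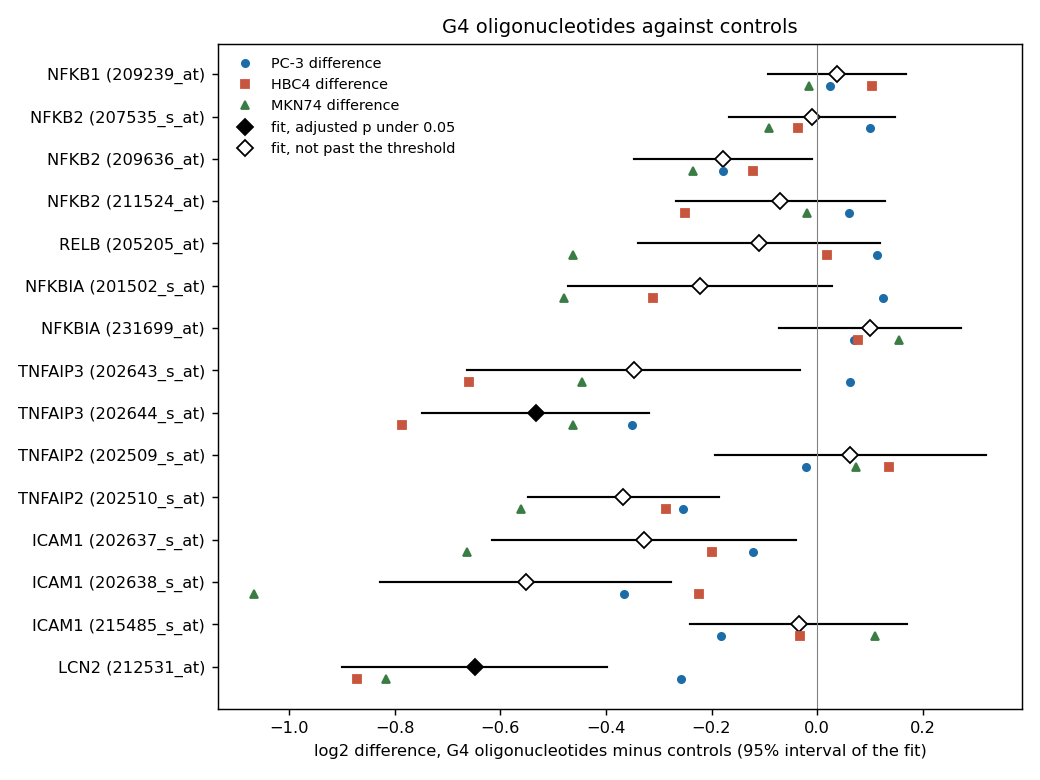
Log2 difference of G4 oligonucleotides minus controls for the 15 probe sets of the 8 genes; diamonds are the fitted differences with 95% intervals, filled where the adjusted p was under 0.05, and small symbols are the differences within PC-3, HBC4 and MKN74. The filled diamonds are those of LCN2 (-0.65) and TNFAIP3 202644_s_at (-0.53), and the MKN74 symbol of ICAM1 202638_s_at lies farthest left, at -1.07.

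Within single lines the 2 G4 arrays were compared with the 2 controls, so arrays of different treatments stood as replicates. In HBC4 limma called 2 of 15 probe sets, both lower, where 1.55% of all were called and 0.981% were called lower. They were LCN2 (-0.87, 95% interval -1.19 to -0.55; adjusted p = 0.013) and TNFAIP3 202644_s_at (-0.79, -1.09 to -0.49; 0.0165). In MKN74 limma called 2 of 15, both lower, where 0.831% of all were called and 0.652% were called lower. They were ICAM1 202638_s_at, which fell 2.09-fold (-1.07, -1.37 to -0.76; adjusted p = 0.00489), and LCN2 (-0.82, -1.14 to -0.50; 0.0278). The other ICAM1 probe sets were not called in MKN74. Control and G4 means there were -0.80 and -1.46 on 202637_s_at. On 215485_s_at they were -0.34 and -0.23, and the groups overlapped. With the mean of its probe sets ICAM1 was at -0.54 in MKN74 (limma adjusted p = 0.088). TNFAIP2 202510_s_at was at -0.56 in MKN74 (adjusted p = 0.0723). In PC-3 limma called 0 of the 15, where 1.21% of all were called, and 2 had an unadjusted p under 0.05, a share close to the 13.2% of all. They were ICAM1 202638_s_at (-0.37, -0.67 to -0.06; adjusted p = 0.283) and TNFAIP3 202644_s_at (-0.35, -0.65 to -0.05; 0.296).

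Single arrays ended these calls. In HBC4 the LCN2 difference was -0.73 (adjusted p = 0.123) without the array with the reagent alone and -0.76 (0.15) without that with AS1411. TNFAIP3 202644_s_at in HBC4 was at -0.60 (0.127) without the reagent alone, -0.80 (0.0727) without (uuaggg)4 and -0.77 (0.137) without AS1411. In MKN74 the LCN2 call was lost without any 1 of the 4 arrays, at -0.87 (0.112) without the reagent alone, -0.76 (0.171) without (uuaccc)4, -0.68 (0.135) without (uuaggg)4 and -0.96 (0.0565) without AS1411. ICAM1 202638_s_at in MKN74 lost its call without AS1411 (-0.95, 0.055).

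A call in 1 line and not in another does not show that the lines differ, so the difference between the responses of the lines was tested as an interaction. limma called 0 of the 15 probe sets, where 0.487% of all were called, and 4 had an unadjusted p under 0.05 (12% of all had). The smallest adjusted p was that of ICAM1 202638_s_at (0.152), followed by RELB (0.316), LCN2 (0.325) and NFKBIA 201502_s_at (0.409).

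Of the comparisons between single treatments, (uuaggg)4 against (uuaccc)4 sets the RNA that can form a G-quadruplex against the RNA with cytosines. limma called 0 of the 15 probe sets, where 0.165% of all were called, and 3 had an unadjusted p under 0.05 (9.26% of all had). They were LCN2, with a log2 difference of -0.65 (SE 0.16; adjusted p = 0.277), TNFAIP3 202644_s_at with -0.52 (SE 0.14; 0.311) and TNFAIP2 202510_s_at with -0.44 (SE 0.12; 0.311).

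AS1411 against the reagent alone sets the DNA aptamer against cells with no oligonucleotide. limma called 0 of the 15, where 0.35% of all were called, and 6 had an unadjusted p under 0.05 (11.8% of all had). Among these were ICAM1 202638_s_at with a log2 difference of -0.73 (SE 0.18; adjusted p = 0.133), LCN2 with -0.65 (SE 0.16; 0.142), TNFAIP3 202644_s_at with -0.55 (SE 0.14; 0.149) and TNFAIP2 202510_s_at with -0.30 (SE 0.12; 0.348). The others were the second probe sets of TNFAIP3 (-0.48) and ICAM1 (-0.41). These comparisons share no array, and LCN2 had a difference of -0.65 in each. The G4 comparison, in which LCN2 was called, is their average, so the match is not separate evidence of its fall. The lines behind the equal means differed. For (uuaggg)4 against (uuaccc)4 LCN2 was at -0.31 (PC-3), -0.62 (HBC4) and -1.02 (MKN74). For AS1411 against the reagent alone LCN2 was at -0.21 (PC-3), -1.12 (HBC4) and -0.62 (MKN74).

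The controls and the G4 oligonucleotides were also compared among themselves. For (uuaccc)4 against the reagent alone limma called 0 of the 15 and 0 of all 54613 probe sets (background 0%), with 0 and 1703 at an unadjusted p under 0.05. Here too most of the 15 were negative, 13 of them, with a median of -0.10. Over all probe sets 51.5% were negative and the median was -0.0042. A lean below 0 was thus also seen between the controls. The log2 difference was -0.10 for LCN2 (95% interval -0.46 to 0.25), -0.01 for TNFAIP3 202644_s_at (-0.32 to 0.29), 0.08 for TNFAIP2 202510_s_at (-0.18 to 0.33) and -0.19 for ICAM1 202638_s_at (-0.58 to 0.20). For (uuaggg)4 against AS1411 limma likewise called 0 of the 15 and 0 of all (background 0%), with 0 and 2633 at an unadjusted p under 0.05. There the difference was -0.10 for LCN2 (-0.46 to 0.25), 0.02 for TNFAIP3 202644_s_at (-0.29 to 0.32), -0.06 for TNFAIP2 202510_s_at (-0.32 to 0.19) and 0.17 for ICAM1 202638_s_at (-0.22 to 0.56). An interval of this width does not show that the RNA and the DNA oligonucleotide act alike, and the 2 differ in sequence and in kind of nucleic acid.

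**Figure D3:**
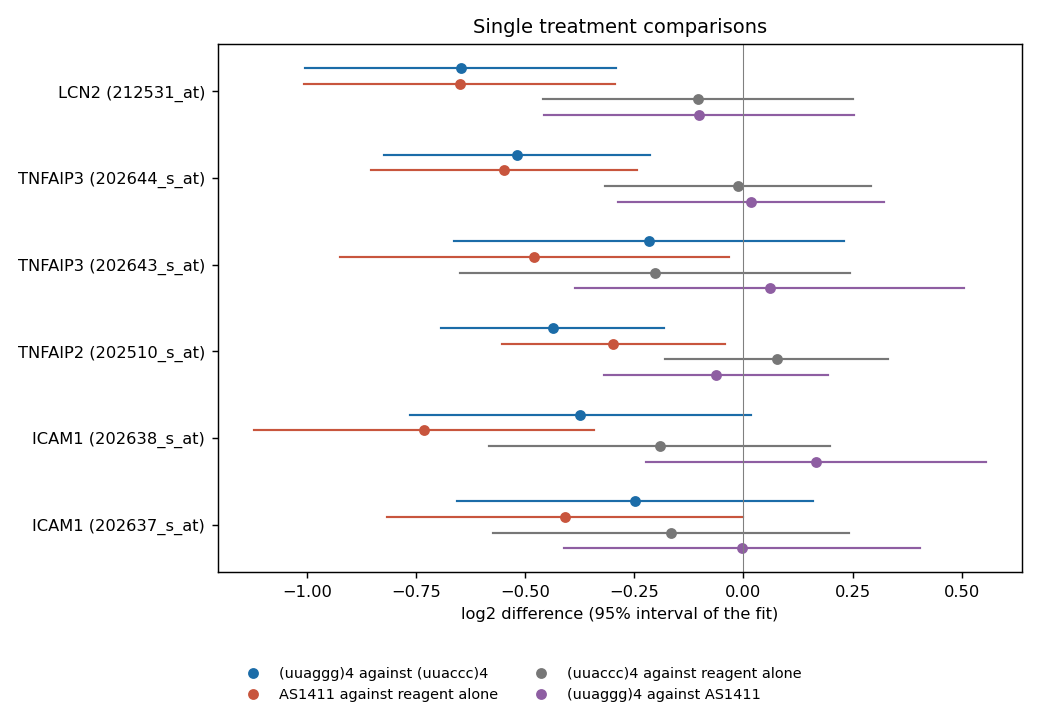
Log2 differences (points) with 95% intervals (bars) for 6 probe sets of LCN2, TNFAIP3, TNFAIP2 and ICAM1 in the 4 comparisons between single treatments. The differences of (uuaggg)4 from (uuaccc)4 and of AS1411 from the reagent alone are all below 0 (-0.65 in both for LCN2), and the intervals of the comparisons among controls and among G4 oligonucleotides all include 0. The probe sets shown had an unadjusted limma p under 0.05 for G4 oligonucleotides against controls. That comparison averages the differences from (uuaccc)4 and from the reagent alone, so their signs follow in part from this choice. Other probe sets of these genes are not shown.

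Between the lines, 4 of the 8 genes differed by more than 1 on the log2 scale on at least 1 probe set. LCN2 stood at 6.41 ± 0.52 in HBC4 (SD over 4 treatments), -0.10 ± 0.49 in MKN74 and -0.45 ± 0.19 in PC-3. TNFAIP2 202510_s_at was highest in HBC4 at 2.01, lay at -0.02 in PC-3 and was lowest in MKN74 at -1.68. ICAM1 was lowest in MKN74 on all 3 probe sets, at -1.41 on 202638_s_at. TNFAIP3 was highest in MKN74 on both, at 1.46 on 202643_s_at and 0.92 on 202644_s_at.

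The order of the lines was thus different from gene to gene. The log2 difference of LCN2 was -6.87 for PC-3 minus HBC4 and 6.51 for HBC4 minus MKN74 (limma adjusted p = 2.13e-12 and 3.41e-12), and PC-3 and MKN74, neighbours in the order, did not differ past the threshold (-0.35; 0.052). That pair lay so close to it that LCN2 was called at gene level (0.0471 with the most variable probe set, 0.0455 with gene means), on the 6 control arrays alone (-0.63; 0.00612) and without any 1 of 5 of the 12 arrays. They were the PC-3 arrays with (uuaggg)4 (-0.42; 0.0488) and AS1411 (-0.49; 0.0119), the HBC4 arrays with the reagent alone (-0.35; 0.044) and AS1411 (-0.35; 0.0296) and the MKN74 array with (uuaggg)4 (-0.44; 0.0334). The 3 differences of TNFAIP2 202510_s_at all passed it (adjusted p of 2.78e-08 or less), whereas 202509_s_at showed none past it. For ICAM1 202638_s_at PC-3 exceeded MKN74 by 1.53 (3.05e-06) and HBC4 exceeded MKN74 by 1.68 (1.62e-06), and PC-3 and HBC4 did not differ past the threshold (-0.16; 0.442). On ICAM1 202637_s_at they did (-0.55; 0.0139), a call lost without the PC-3 array with the reagent alone (-0.50; 0.0512) or with (uuaccc)4 (-0.50; 0.0506) or the HBC4 array with (uuaggg)4 (-0.39; 0.0627). TNFAIP3 202643_s_at differed by -1.55 for PC-3 minus MKN74 (8.99e-06). TNFAIP3 202644_s_at differed by 0.44 for PC-3 minus HBC4 (0.00977), a call lost on the 6 control arrays alone (0.22; 0.339), whereas 202643_s_at was at -0.05 for that pair (0.833).

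The subunit and inhibitor genes spanned a narrow range between lines. NFKB1 lay at -0.23 (PC-3), 0.04 (HBC4) and 0.03 (MKN74), and the differences of PC-3 from HBC4 (-0.26; adjusted p = 0.0108) and from MKN74 (-0.25; 0.0122) passed the threshold. Both NFKB1 calls were lost on the 6 control arrays alone (-0.22; 0.156 and -0.27; 0.0845), and that of PC-3 and MKN74 with quantile normalization (-0.18; 0.0664). NFKB2 207535_s_at lay at -0.29 (PC-3), 0.02 (HBC4) and 0.26 (MKN74). All 3 of its pairs were called, although that of HBC4 and MKN74 (-0.25; 0.0399) was lost without any 1 of 8 arrays (those with (uuaccc)4 or AS1411 in any line, (uuaggg)4 in HBC4 and the reagent alone in MKN74), at adjusted p-values of 0.0501 to 0.13, and that of PC-3 and HBC4 (-0.31; 0.0121) without the reagent-alone array of PC-3 (-0.25; 0.0526) or of HBC4 (-0.26; 0.0519). NFKB2 209636_at lay at -0.09 (PC-3), -0.15 (HBC4) and 0.23 (MKN74), so HBC4 was lowest there. NFKB2 211524_at lay at -0.27 (PC-3), 0.09 (HBC4) and 0.14 (MKN74). RELB was called in no pair, with -0.09 (PC-3), 0.08 (HBC4) and 0.19 (MKN74). NFKBIA was lower in PC-3 than in MKN74 on 201502_s_at (-0.40; 0.0312), a call lost without 4 single arrays, those of PC-3 and MKN74 with the reagent alone or (uuaccc)4 (adjusted p-values of 0.0724 to 0.13). The NFKBIA call was also lost with quantile normalization, with array medians subtracted and without moderation of the variances.

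The spread behind these tests is that between treatments, and 1 culture stands for a line. The lines differ in so many probe sets that the counts say little about these genes. Of the 15 probe sets 7 differed between PC-3 and HBC4 (46.8% of all were called), 11 between PC-3 and MKN74 (52.7% of all) and 9 between HBC4 and MKN74 (43.1% of all).

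**Figure D4:**
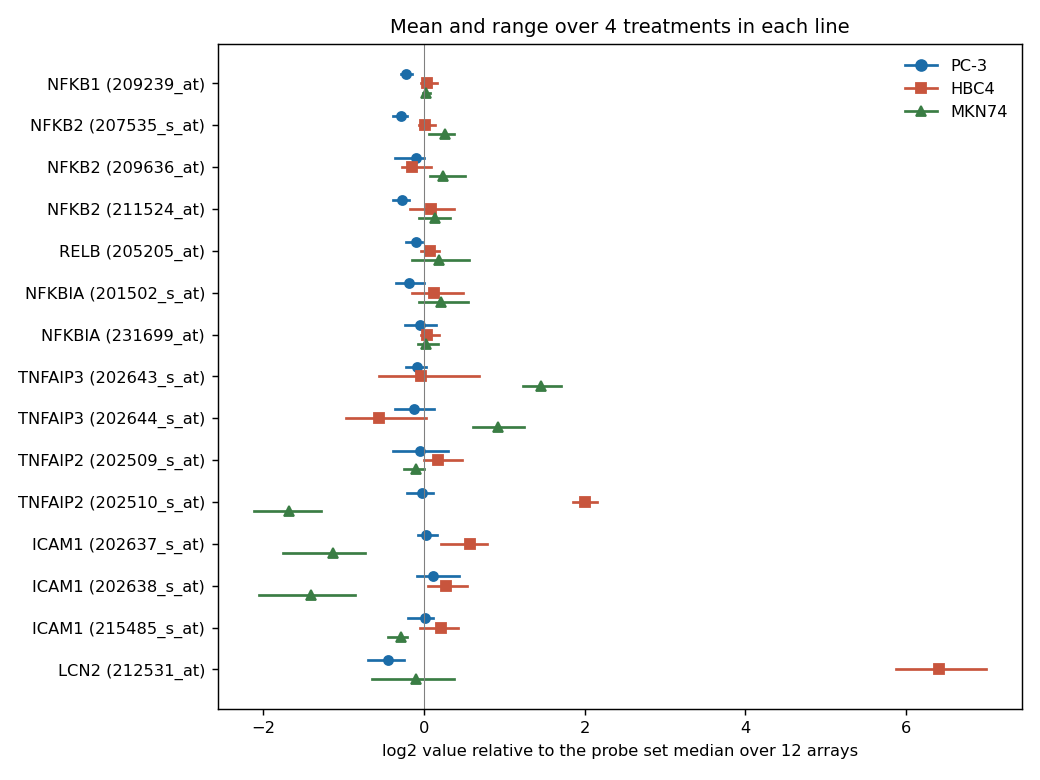
Mean (symbol) and range (bar) over the 4 treatments of the centred log2 value of each of the 15 probe sets in PC-3, HBC4 and MKN74. LCN2 in HBC4 lies at 6.41, apart from all other values, while the means of NFKB1, NFKB2, RELB and NFKBIA lie between -0.29 and 0.26.

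The rest of the pathway was read from 6 lists for the G4 comparison, for which 1.57% of all probe sets were called. A gene is counted below if any 1 of its probe sets was called, so shares of genes cannot be set against that 1.57%. Of the receptors and adaptors limma called 4 of 23 probe sets, all lower, from 3 of 11 measured genes. TLR3, the endosomal receptor for double-stranded RNA, fell by 1.18 on 206271_at (adjusted p = 6.21e-04) and by 1.36 on 239587_at (0.00962), while its other probe set was at -0.04. MYD88, the adaptor of most Toll-like receptors, fell by 0.42 (0.0276), and IL1R1, an interleukin-1 receptor, fell by 0.49 on 1 of 2 probe sets (0.0421). TLR3 206271_at was also lower with (uuaggg)4 than with (uuaccc)4 (-1.21; 0.026) and with AS1411 than with the reagent alone (-1.16; 0.0167). The first of these calls was lost without any 1 of 5 arrays, those of PC-3 and HBC4 with either RNA oligonucleotide and that of MKN74 with (uuaggg)4 (-1.28 to -1.13; adjusted p of 0.0884 to 0.194). The other was lost without any 1 of 4, those of PC-3 and HBC4 with the reagent alone or AS1411 (-1.19 to -0.97; 0.0671 to 0.111).

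Of the canonical kinases and ubiquitin ligases limma called 0 of 13 genes, of the non-canonical branch 0 of 9, and of the other Rel subunits and IkB proteins 0 of 6. At an unadjusted p under 0.05 were 6 of the 31, 5 of the 19 and 4 of the 16 probe sets of these lists, against 16.2% of all. In the other lists it was 5 of 23 for the receptors and adaptors, 10 of 36 for the feedback genes and 32 of 62 for the other target genes. Among the kinases and ligases the values farthest from 0 were those of BCL10 (0.41, adjusted p = 0.273) and RBCK1 (-0.34, 0.084). In the non-canonical branch they were those of TNFSF13B (-0.44, 0.211) and LTB (0.21, 0.151). Among the Rel and IkB genes they were those of REL (-0.52, 0.165) and NFKBIZ (-0.41, 0.11). Other probe sets of these genes lay nearer 0, as near as 0.0008 for BCL10 (3 probe sets), -0.05 for RBCK1 (3) and -0.04 for REL (5). Of the feedback genes and deubiquitinases limma called 2 of 36 probe sets, both lower and both of 1 gene out of 10. That gene was N4BP1, a ribonuclease that restrains NF-kB signalling, at -0.51 on 32069_at (0.00933) and -0.48 on 204601_at (0.0199). It was called on 2 of 4 probe sets, and the one nearest 0 was at -0.05. OTUD7B was next (-0.42, 0.0603), with differences from -0.42 to 0.18 over its 6 probe sets.

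Of the other target genes limma called 7 of 62 probe sets, all lower, from 3 of 30 genes. IRF1, an interferon-inducible transcription factor, fell by 0.48 on 202531_at (0.00754) and by 0.52 on 238725_at (0.0175). The caspase regulator CFLAR was called on 4 of 14 probe sets, with differences from -0.48 to 0.15 over all of them, and the survival gene BCL2L1 on 1 of 4 (-0.42; 0.0425). CFB, a complement factor, was at -1.09 (0.0564) on 1 probe set and 0.17 on the other, and the cytokine gene IL6 at -0.79 (0.0657). The median log2 difference was -0.17 over the 62 probe sets of this list, close to the -0.18 of the 8 genes, and lay between -0.05 and 0.03 in the other 5 lists.

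Beside these values, the interferon-stimulated genes IFI44, IFIT1 and OAS1 fell in the same comparison, with log2 differences of -3.16, -2.76 and -2.31 on the probe set farthest from 0. Of the 13 pathway probe sets called, 5 stayed past the threshold with each of the 12 arrays left out in turn (2 of TLR3, 1 each of N4BP1, IRF1 and CFLAR), and 0 stayed past it with each line left out as well. Without HBC4 the TLR3 206271_at difference was -1.15 (adjusted p = 0.0627).

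**Figure D5:**
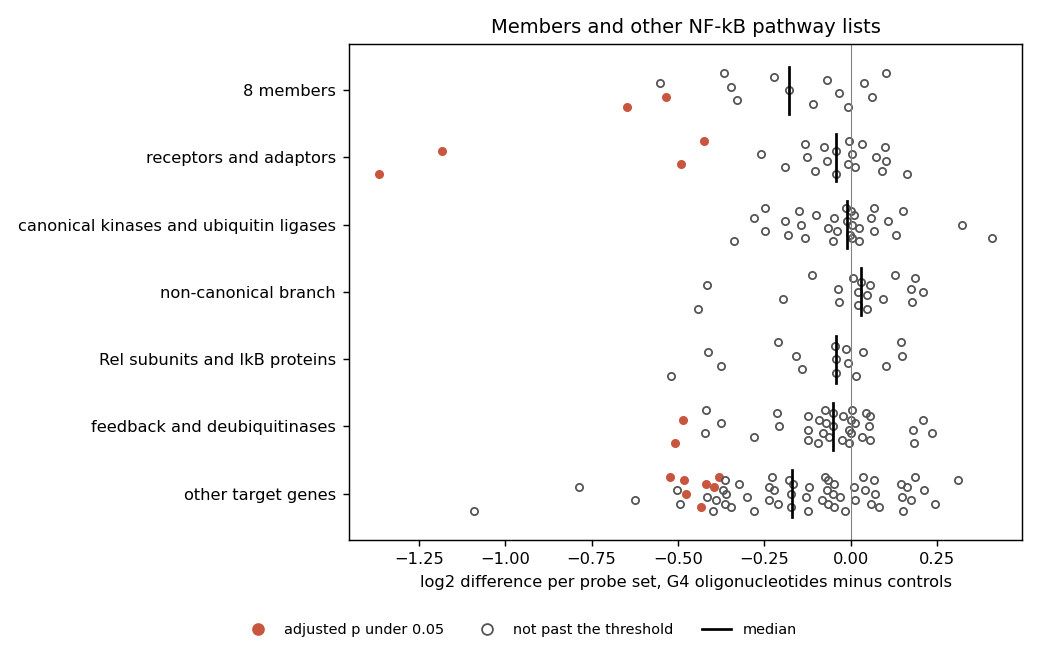
Log2 difference of G4 oligonucleotides minus controls for each probe set of the 8 genes and of 6 further lists of pathway genes; filled points passed an adjusted p of 0.05 and bars are medians. The median of the other target genes (-0.17) lies beside that of the 8 genes (-0.18), and all filled points lie below 0.

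With the mean of each line subtracted, the genes were set against each other over the 12 arrays, as a description. Each gene was read at the probe set that varied most after this subtraction, which for TNFAIP3 was 202644_s_at. LCN2 was most like TNFAIP3 (Pearson r = 0.906) and TNFAIP2 (0.861), NFKBIA was most like RELB (0.826), and ICAM1 was most like TNFAIP2 (0.808). NFKB1 stood apart from the other 7, with r from -0.468 to 0.269. The 12 arrays share 3 lines and the same treatments, so these values are not independent evidence of the falls above.

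Over all genes named by the annotation, the pattern most like that of LCN2 was that of OXR1 (r = 0.972), then C1orf116 (0.971) and CCDC126 (0.97). For TNFAIP3 it was ZCCHC10 (0.973), for TNFAIP2 LINC00964 (0.956), and for ICAM1 KIAA0319L (0.993), ZDHHC2 (0.993) and ERAP1 (0.991). NFKBIA was most like ZNF317 (0.956), RELB like MID2 (0.955), NFKB2 like PGM2L1 (0.951) and NFKB1 like MET (0.904). With line means kept in, 1 of the 24 genes so found (3 for each gene) was found again, FNBP1 for NFKB1.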

How the data were processed

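RNA of 12 samples (3 lines, 4 treatments) was measured on Affymetrix human arrays. The deposited values are log2 expression values made with RMA, per the submitters' processing notes, which give no version of it. The centring of each probe set to a median of 0 (to within 5e-07) is seen in the values, and the step that made it is not given in the sources used here. Probe sets were named from the platform annotation of 2016. Of the 54675 probe sets in the table, 62 array controls were left out, and no filter on intensity could be set. Each probe set was fitted with limma 3.58.1 (R 4.3.3), with treatment and cell line as terms (6 residual degrees of freedom). A model with a class effect (G4 or control) in each line gave the comparisons within lines and the interaction. The adjusted p is that of Benjamini and Hochberg over all 54613 probe sets, with a threshold of 0.05. The replicate number is the cell line in every treatment, so the numbers pair arrays of the same line and the line is a block in the fit. The oligonucleotide sequences are not reported here. The scripts were tested on simulated data. The genes and lists were chosen with earlier results of these data known. Pathway genes were named where a probe set was called in a treatment comparison or was among the 2 farthest from 0 in its list, and 3 genes most like each gene were sought. Precision is limited by 1 array per line and treatment.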

Additional observations from a re-analysis of the deposited data

Results flagged for a closer look

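RELB had opposite orders of its arrays in PC-3 and MKN74. Within PC-3 both G4 arrays lay above both controls, with a log2 difference of 0.11, and within MKN74 both lay below both controls, with a difference of -0.46. The limma interaction over the 3 lines had an unadjusted p of 0.0202 and an adjusted p of 0.316, so the difference between lines did not pass the threshold over all probe sets. Within single lines the adjusted p-values of RELB also missed it.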

How the results depend on the processing

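Direction was checked for the called results of the 8 genes and of the pathway probe sets. It was also checked for probe sets of the 8 genes with an unadjusted limma p under 0.05 in the G4 comparison. In these it was kept under every alternative run at probe set level. Those alternatives included the most variable probe set of each gene, here the one that varied most between lines. They also included other normalizations, other variance priors, no replicate block, fewer arrays, and each line or array left out. For the other results of the 8 genes direction was not checked. The alternatives for pathway probe sets were chosen after seeing the data. For G4 oligonucleotides against controls 2 genes were called, and 1 with the mean of a gene's probe sets (LCN2), 4 with array medians subtracted (ICAM1, LCN2, TNFAIP2, TNFAIP3), 0 without moderation and 0 with no replicate block (treatment only). With lines or arrays left out it was 0 to 2. Within HBC4 the count of 2 became 1 with the most variable probe set of each gene, 0 without moderation, 0 on the 4 arrays of the line alone, and 0 to 2 with arrays left out. Within MKN74 the count of 2 became 3 with the most variable probe set of each gene (ICAM1, LCN2, TNFAIP2), 1 with gene means, 1 with quantile normalization, 1 with a variance trend, 0 without moderation, 0 on the 4 arrays alone, and 0 to 2 with arrays left out. The cause was not tested, apart from the fewer arrays of some settings. Over all alternatives the log2 difference ran from -0.84 to -0.54 for LCN2 and from -0.62 to -0.41 for TNFAIP3 202644_s_at. The called probe sets numbered 859 in the G4 comparison over all genes, 325 without moderation, 0 with no replicate block and 80 to 654 with lines or arrays left out. Signal over background is not known for centred values, so a probe set near background cannot be told from one that did not change.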
